A study of Mus musculus with 12 samples.

Results

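Oxidative phosphorylation is carried out in the inner mitochondrial membrane by the 4 complexes of the respiratory chain and by the ATP synthase, which is counted as complex V. Complex I (NADH dehydrogenase) and complex II (succinate dehydrogenase) pass electrons to ubiquinone, complex III passes them on to cytochrome c, complex IV (cytochrome c oxidase) passes them to oxygen, and the ATP synthase uses the proton gradient that complexes I, III and IV build. Most subunits are encoded in the nucleus, made in the cytosol and imported, and the catalytic centres of complexes I, III, IV and V also need subunits encoded in mitochondrial DNA. Haematopoietic stem cells (HSCs) are known for relying comparatively little on respiration while quiescent and for raising it as they differentiate. The genes described here are the nuclear genes whose symbols begin with Ndufa, Ndufb, Ndufc, Ndufs or Ndufv (complex I), Sdha to Sdhd (complex II), Uqcr (complex III), Cox4 to Cox8 (complex IV) or Atp5 (complex V), without symbols ending in -ps. They numbered 97 of the 35869 genes in the deposited tables, with 45 in complex I, 8 in complex II, 9 in complex III, 18 in complex IV and 17 in complex V. By role they comprised 22 core subunits, 52 other subunits, 11 assembly factors, 8 second isoforms, 1 processed pseudogene (Uqcrh-ps1, which the rule keeps) and 3 further genes (Cox7a2l, Atp5s and Atp5sl). The mitochondrially encoded subunits were not analysed here.

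RNA was taken from sorted bone marrow HSCs of mice, split by surface CD41 into CD41pos and CD41neg cells; CD41 is the integrin encoded by Itga2b and marks stem cells with a megakaryocyte bias. The WT mice were MxCre1-/- with RUNX1f/f, so they carried the floxed Runx1 alleles without the recombinase, and the KO mice were MxCre1+/- with RUNX1f/f. All mice, WT included, had received 4 injections of polyIC, which induces interferon, and were sampled 4 weeks after injection; their ages were not given. The Mx1 promoter answers to interferon in blood cells and in other tissues, so deletion is not limited to HSCs, and its completeness was not given. Each of the 4 groups (CD41pos WT, CD41neg WT, CD41pos KO and CD41neg KO) had 3 libraries, and the labels do not say that these came from separate animals, so the p-values speak only of the scatter among libraries, part of which may be technical. The libraries were made from total RNA with a SMART-Seq v4 kit, which copies whole transcripts and keeps no strand.

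Library totals ranged from 44108035 to 58946457 assigned counts, and 21973 to 27097 genes had at least 1 count. Runx1, the targeted gene, measured 159, 141 and 147 CPM (counts scaled to a common library size) in CD41pos WT, 84, 90.5 and 65.7 in CD41neg WT, 270, 382 and 325 in CD41pos KO and 171, 157 and 163 in CD41neg KO. It was thus higher in the libraries labelled KO, by 1.13 ± 0.15 (SE) log2 units in CD41pos (edgeR adjusted p = 0.00201) and 1.03 ± 0.15 in CD41neg (edgeR adjusted p = 0.00368). The count is over the whole gene and does not separate the floxed part, so it does not check the deletion, and KO stands below for libraries labelled so. Itga2b was 2.59 ± 0.29 (SE) log2 units higher in CD41pos than in CD41neg libraries in WT and 2.18 ± 0.29 in KO, the order the gates give. It also moved with genotype: it was higher in KO by 1.26 ± 0.28 in CD41neg (edgeR adjusted p = 0.0223; 0.92 and adjusted p = 0.0144 without CD41neg WT 4), with 122, 138 and 49.6 CPM in WT and 270, 257 and 213 in KO, and gave 0.85 ± 0.28 in CD41pos (edgeR adjusted p = 0.0547). The Y-linked gene Ddx3y measured 0.0355, 11.2 and 22.5 CPM in CD41pos WT and 19.4, 38.9 and 0 in CD41neg WT. It measured 97.4, 0.161 and 83.4 CPM in CD41pos KO and 103, 0.155 and 92.9 in CD41neg KO. It was thus near 0 in some libraries of each genotype, and in the others it was 11.2 to 38.9 CPM in WT and 83.4 to 103 in KO. The make-up of the libraries by sex may therefore differ between the genotypes, and some WT libraries may mix both sexes, which was not tested. The part of sex in the differences below was not tested beyond a fit with a covariate of Y-linked genes. All 12 HSC markers looked up were detected, with a summed level of 943 to 2430 CPM per library. The markers of other cell types were also detected, none of them at 0 in every library. The 9 granulocyte and monocyte markers summed to 5170 to 6470 CPM in CD41pos WT, 1810 to 4120 in CD41pos KO, 1740 to 2840 in CD41neg WT and 465 to 1170 in CD41neg KO. The 9 stromal and endothelial markers summed to 223 to 441 CPM in CD41pos WT and 239 to 925 in CD41neg WT, against 105 to 124 and 72.2 to 110 in the KO groups. The 7 megakaryocyte and platelet markers summed to 487 to 609 CPM in CD41pos WT and 384 to 445 in CD41pos KO, against 43.7 to 81.9 in the CD41neg libraries. The 7 erythroid markers summed to 197 to 1480 CPM, the 6 basophil and mast cell markers to 570 to 1240, and the 5 measured B and plasma cell markers to 137 to 2970 in WT and 49.3 to 179 in KO. The 5 T and NK cell markers summed to 226 to 298 CPM in CD41pos WT, 76.8 to 134 in CD41pos KO, 82.7 to 129 in CD41neg WT and 46.4 to 81.6 in CD41neg KO. The granulocyte, stromal, B cell and T cell sums were lower in KO than in WT without overlap within each gate. The erythroid sums, and in CD41neg the megakaryocyte and basophil sums, overlapped. Gata2 was the largest part of the basophil sum in every library, at 418 to 563 CPM in CD41neg WT and 498 to 620 in CD41neg KO. Prss34 measured 314, 59.5 and 350 CPM in CD41neg WT and 0.666, 0.774 and 0.323 in CD41neg KO. Prss34, Mcpt8 and Fcer1a were lower in KO without overlap in both gates. Cpa3 and Ms4a2 were higher in CD41pos KO without overlap, and overlapped in CD41neg. The part of these markers in the differences below was not tested. In such sorted bulk samples, fewer cells of a type and less RNA per cell cannot be told apart.

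Promoter sequences of 77 of the 97 genes were found in a RefSeq table on the GRCm38.p6 assembly, in 82 windows of the 250 bases before a transcription start. The windows were searched on both strands for the sites of factors known to act on respiratory chain genes and of RUNX1, and 1 stretch per complex, with both a matching and a non-matching one for complex III, is shown. Ndufa11 is shown for its match to the NRF1 motif, and the other genes because they recur in the comparisons below. Each stretch is written on the gene's own strand and ends before the start of the gene in GENCODE release M21. Ndufa11 lies at chr17:56717642-56717761 (plus strand), Sdhd at chr9:50603850-50603969 (minus), Uqcr11 at chr10:80406831-80406941 (minus), Uqcrc1 at chr9:108936528-108936632 (plus), Cox6b2 at chr7:4753095-4753214 (minus) and Atp5e at chr2:174464106-174464221 (minus). Capitals mark the NRF1 motif (the capitals in Ndufa11), CCGGAAG (ETS factors such as GABPA), AAGATGGC (YY1) or TGTGGT (RUNX), or the reverse complement of one of them.
Ndufa11: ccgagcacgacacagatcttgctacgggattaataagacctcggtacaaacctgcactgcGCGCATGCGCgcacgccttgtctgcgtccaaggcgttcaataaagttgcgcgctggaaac
Sdhd: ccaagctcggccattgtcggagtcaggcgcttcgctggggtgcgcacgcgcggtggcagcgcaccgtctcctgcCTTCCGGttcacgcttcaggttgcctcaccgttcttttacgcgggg
Uqcr11: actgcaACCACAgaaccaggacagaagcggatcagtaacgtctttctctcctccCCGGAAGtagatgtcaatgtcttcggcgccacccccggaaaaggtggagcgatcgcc
Uqcrc1: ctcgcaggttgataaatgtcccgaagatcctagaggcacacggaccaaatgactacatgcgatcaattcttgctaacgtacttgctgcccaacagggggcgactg
Cox6b2: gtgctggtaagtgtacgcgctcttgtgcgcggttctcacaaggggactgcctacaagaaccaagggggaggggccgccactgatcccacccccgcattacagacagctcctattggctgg
Atp5e: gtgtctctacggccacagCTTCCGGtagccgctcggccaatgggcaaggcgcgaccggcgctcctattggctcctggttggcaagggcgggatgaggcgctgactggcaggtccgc

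The NRF1 letters were present in 5 of the 82 windows (6.1%), against 0.782% of all 32851 windows of the table. Those 5 windows belonged to Atp5g2, Atp5k, Cox6a1, Ndufa11 and Ndufaf4. The ETS letters were present in 15 windows (18.3%), against 6.91% of all windows, and in 3 of the 7 windows of complex II. The RUNX letters were present in 9 windows (11%), against 14% of all windows, and the YY1 letters in 1.22% against 1.56%. The SP1 letters GGGCGG, not capitalised and free to share bases with the other motifs, were present in 39% against 32.7%. Ndufs7 held the RUNX letters at 3 positions, Uqcr11 and Ndufaf1 held both RUNX and ETS letters, and Uqcrc1 and Cox6b2, which were called lower in KO below, held none of the 4 capitalised motifs in the stretches shown. A match is a match of letters and was not tested as a site.

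The subunit genes were expressed at high and unequal levels. Together the 97 genes made up 3.99% to 5.51% of the summed TPM (the deposited measure per transcript length). Compared per length over the subunits of each complex, the median of the 12-library mean was 404 TPM for complex I, 452 for complex II, 546 for complex III, 1.01e+03 for complex IV and 611 for complex V. In complex I the highest was Ndufa4, a small subunit now assigned by many to complex IV, at 1.26e+03 TPM. The lowest were Ndufa13 at 48.6 TPM and Ndufs1, the iron-sulfur subunit that takes electrons onward from the flavin site, at 42.5 TPM. The lengths implied by the deposited tables were 8515 bases for Ndufa13 and 14034 bases for Ndufs1. The median over the tested genes of the set was 1309 bases, and a long gene model lowers a value per length. This limit also applies to the lowest genes of complexes III and V below, Uqcrq (2990 bases) and Atp5j (5080 bases). In CPM the group means of Uqcrq were 113 to 183, against 108 to 178 for Uqcr11. Those of Atp5j were 190 to 263, against 57.1 to 93.5 for Atp5k. These lowest ranks in TPM therefore cannot be read as lowest expression alone. In complex II the order ran from Sdhd, a membrane anchor, at 717 TPM through Sdha, the flavoprotein, at 555 and Sdhb, the iron-sulfur subunit, at 348 to Sdhc, the other anchor, at 215. In complex III Uqcr11 led at 1.01e+03 TPM with Uqcrc1, a core protein of the matrix arm, at 934, and Uqcrq was lowest at 147. In complex IV Cox8a led at 1.5e+03 TPM and Cox7b was lowest at 393. In complex V the catalytic beta subunit Atp5b led at 2.47e+03 TPM, ahead of the alpha subunit Atp5a1 at 1.44e+03, and Atp5j was lowest at 138.

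**Figure D1:**
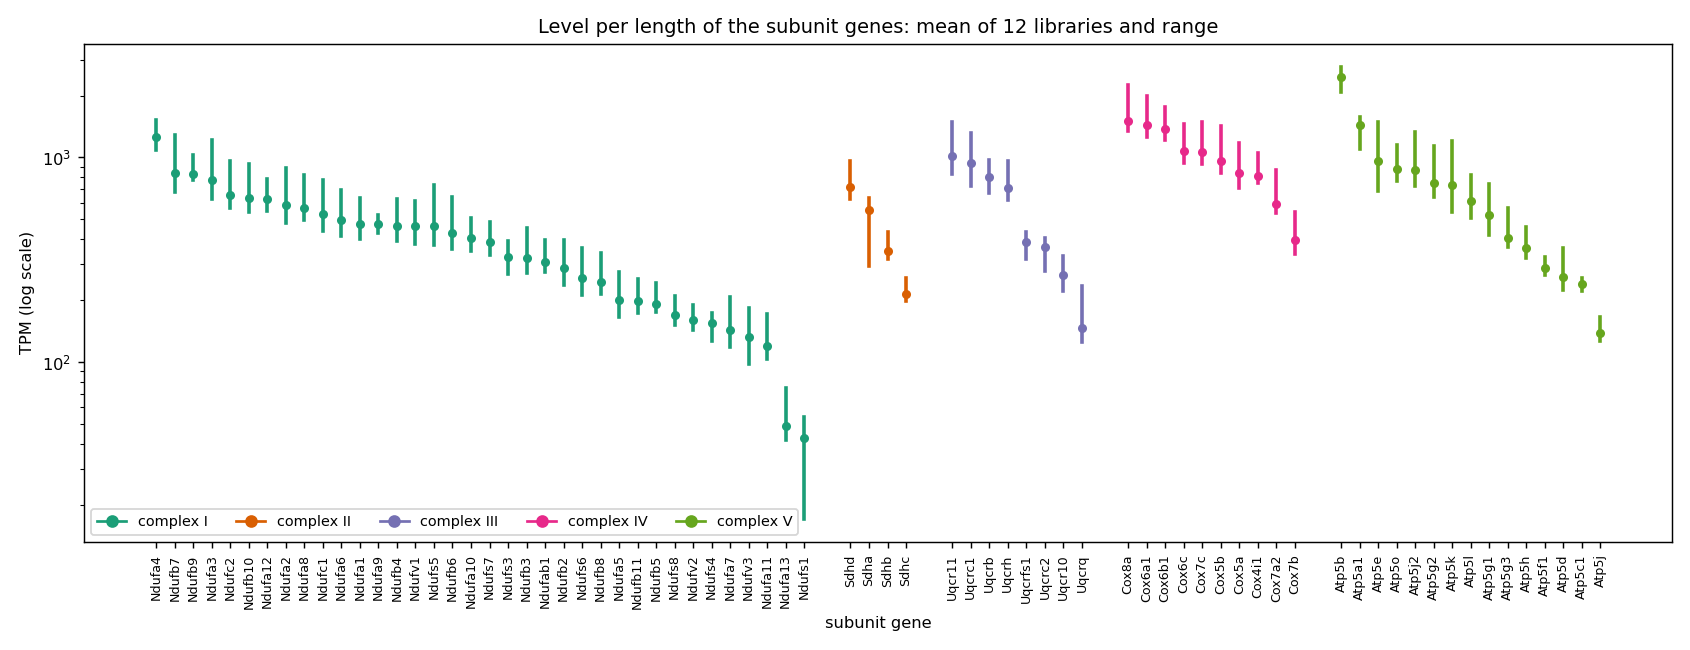
The mean TPM over the 12 libraries (points, log scale) and the range from the lowest to the highest library (bars) for the core and other subunit genes reported singly, ordered within their complex. Atp5b stands highest at 2.47e+03 TPM and Ndufs1 lowest at 42.5 TPM, and the bar of Ndufs1 reaches far below its mean.

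This order of levels was nearly the same in all 4 groups. Over the 74 subunit genes, Spearman's rho between group means in TPM was 0.982 to 0.994 for the 6 pairs of groups, given as a description since the points share libraries and gene lengths. The spread of TPM within a complex was widest in complex I, where the highest subunit was 29.7 times the lowest, and narrowest in complex II, at 3.34 times. The complex I ratio rests on Ndufs1 and its gene model of 14034 bases. In CPM the group means of Ndufs1 were 134 to 204, so this spread cannot be read as unequal expression alone.

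Before the comparisons, 2 WT libraries have to be set apart. The mean log2 CPM over the 94 tested genes was 6.52, 7.23 and 6.44 in CD41pos WT 1, 3 and 4, and 6.45, 6.41 and 6.93 in CD41neg WT 2, 3 and 4. In the KO libraries it was 6.36, 6.35 and 6.32 for CD41pos and 6.27, 6.43 and 6.25 for CD41neg. CD41pos WT 3 and, less so, CD41neg WT 4 were thus above every other library. Of the remaining 4 WT libraries, CD41neg WT 3 lay within the range of the KO libraries and the other 3 lay slightly above it. Of the 94 tested genes, 74 had their highest CPM in CD41pos WT 3, where 23.3% of all tested genes did, and 16 had it in CD41neg WT 4, where 11.3% did. The cytosolic ribosomal protein genes followed, with a mean of 8.65 log2 CPM in CD41pos WT 3 and 8.26 in CD41neg WT 4, against 7.57 to 7.81 in the others. So did short genes in general. Among other genes of at least 20 CPM, the 327 shorter than 1000 bases deviated from their own 12-library mean by a median of 0.84 log2 units in CD41pos WT 3 and 0.35 in CD41neg WT 4. The oxidative phosphorylation genes deviated by 0.84 and 0.42, and genes over 4000 bases by -0.29 and -0.07. The summed HSC markers were lowest in these libraries, at 943 and 1200 CPM, against 1480 to 2430 in the others. Beside most of the medians and calls below, and the main values that were not called, the value without CD41pos WT 3 (CD41pos comparisons) or without CD41neg WT 4 (CD41neg comparisons) is given. The part of transcript length in the results was not tested beyond the values printed.

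**Figure D2:**
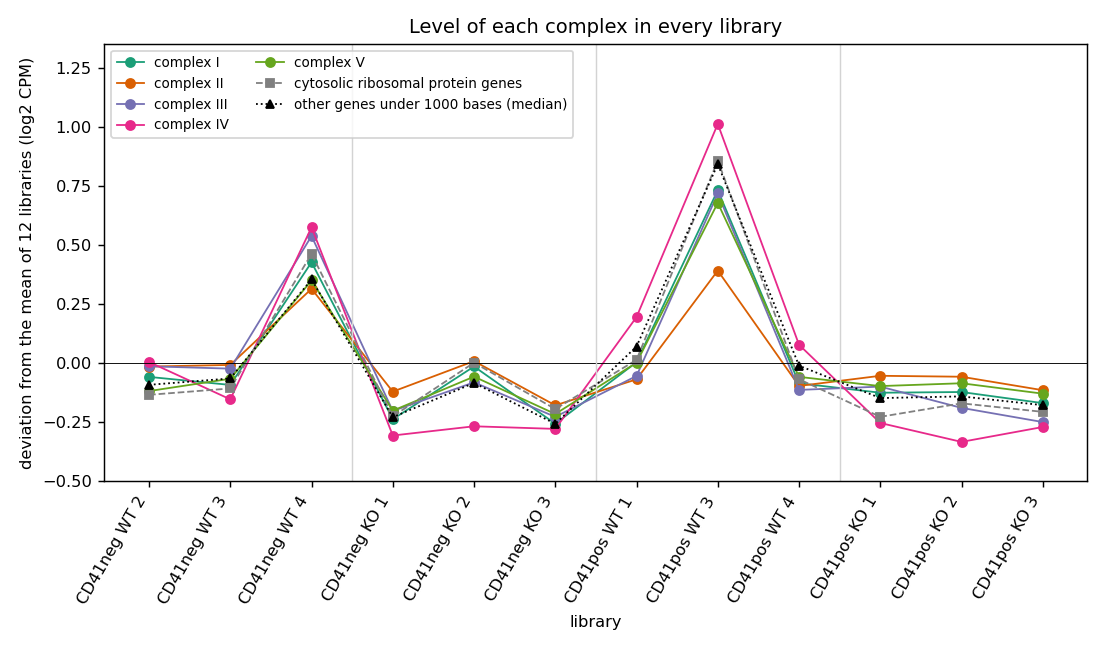
The mean log2 CPM of each complex in every library, as the deviation from its own mean over the 12 libraries, with the cytosolic ribosomal protein genes (grey squares) and the median of other genes under 1000 bases (black triangles). All lines peak in CD41pos WT 3 and again in CD41neg WT 4. The other libraries lie below these, most widely spread for complex IV, from 5.277 to 5.805 in mean log2 CPM.

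The KO and WT libraries were first compared within the CD41pos gate, the population in which the series title places the question of RUNX1. Few single genes passed the test, although nearly all measured lower in KO. Among the 94 tested genes, edgeR's quasi-likelihood test with Benjamini-Hochberg adjustment over 19395 genes called 1 higher and 4 lower (adjusted p below 0.05), where 9.79% of all genes were called higher and 7.27% lower. In either direction 17.1% of all genes were called, against 5 of 94 here. At an unadjusted p below 0.05, 40 of the 94 passed, against 35.4% of all genes. The median log2 fold change was -0.48, against -0.08 over all genes, and 87 of the 94 values were negative. In 52 genes all 3 KO libraries lay below all 3 WT libraries, and in 4 they lay above, where 22.4% and 21.9% of all genes did (44.3% in either direction). By complex the median was -0.48 for complex I, -0.28 for complex II, -0.40 for complex III, -0.52 for complex IV and -0.51 for complex V. Without CD41pos WT 3 these medians were -0.12, -0.06, -0.04, -0.13 and -0.08.

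Transcript length and CD41pos WT 3 moved with this shift. In the same comparison the median over other genes was -0.54 under 1000 bases, -0.34 from 1000 to 2000, -0.10 from 2000 to 4000 and 0.20 above 4000. The oxidative phosphorylation genes gave -0.51, -0.37, -0.43 and -0.11 in those classes, with 42, 23, 20 and 9 genes. Without CD41pos WT 3 their median was -0.12, with 73 negative values and 2 genes called higher and 2 lower (7.83% and 5.18% of all genes), and with an offset for length fitted in every library it was -0.08. With that offset 14 genes were lower and 8 higher in KO without overlap, where 20.2% and 21.7% of all genes were. Without both CD41pos WT 3 and CD41neg WT 4 the median was -0.09, and 8 genes were called. There 52 genes lay lower and 9 higher in KO without overlap, where 29.5% and 27.6% of all genes did. Leaving libraries out can only keep or raise a count without overlap, so these counts could not have fallen.

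**Figure D3:**
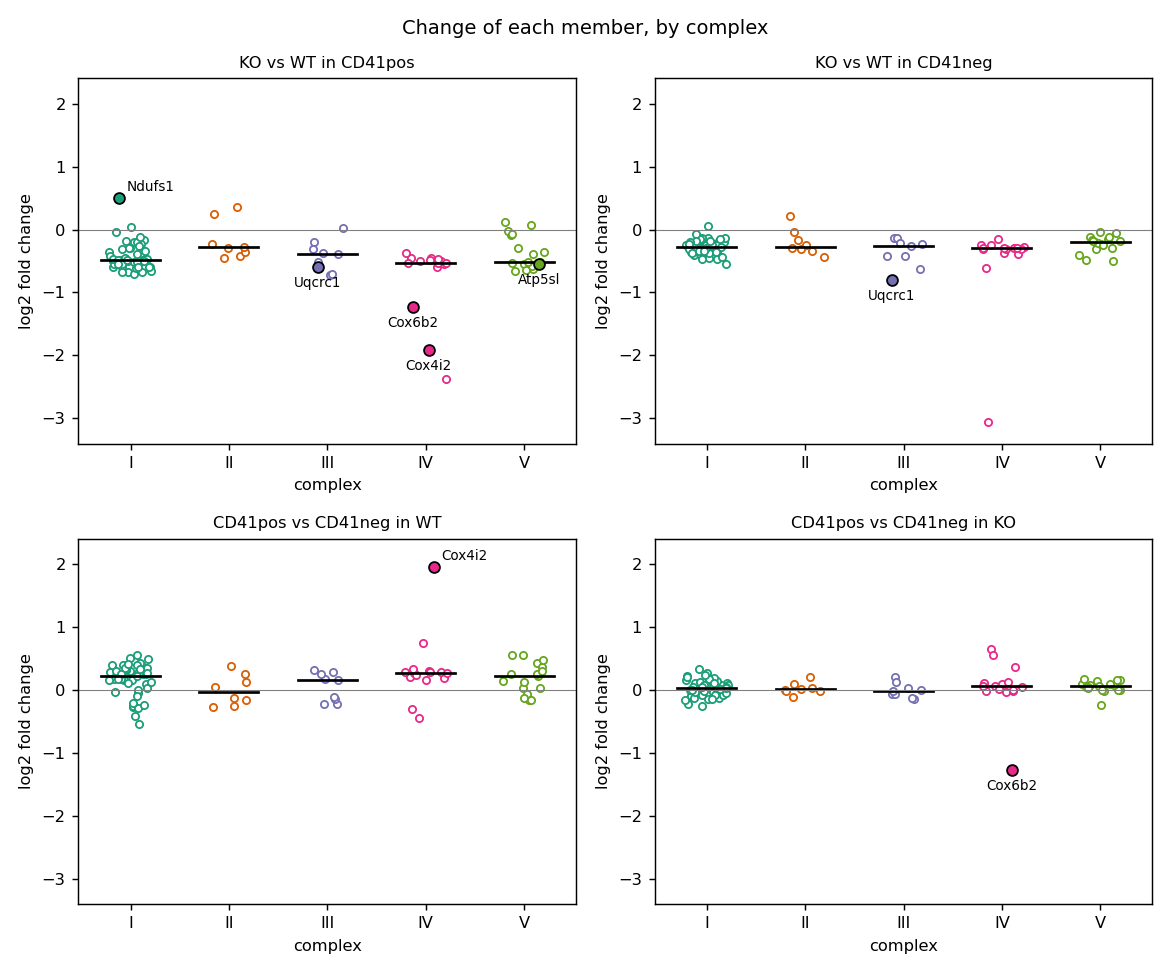
The log2 fold change of each tested gene (points) in the 4 comparisons, by complex, with the median of each complex (bars). Filled and labelled points passed the test at an adjusted p below 0.05, and the lowest unlabelled point in both KO against WT panels is Cox6a2, at -2.37 in CD41pos and -3.05 in CD41neg.

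In complex I, 1 of 45 genes was called in CD41pos cells, and it was higher in KO. Ndufs1 measured 153, 100 and 150 CPM in CD41pos WT and 202, 187 and 182 in CD41pos KO. The groups did not overlap, and the library lowest in Ndufs1 was CD41pos WT 3, in which most other genes of the set were highest. The log2 fold change was 0.50 ± 0.15 (SE, n = 3 libraries per group; edgeR adjusted p = 0.0382). Without CD41pos WT 3 it was 0.33 (adjusted p = 0.0407), with the length offset 0.40 (adjusted p = 0.0478), and over 27 alternatives the call was kept in 16, with an adjusted p of up to 0.121. Ndufs1 lies on chr1:63143596-63176833 (minus strand, mm10), and its exons overlap those of Eef1b2 and Ino80dos on the other strand, so part of its counts cannot be assigned to 1 gene. No other core subunit of complex I was called. Ndufs3, a core subunit of the peripheral arm, measured 96.5, 141 and 94.4 CPM in WT and 80.6, 74.9 and 78.7 in KO, without overlap, and missed the threshold at -0.50 ± 0.16 (edgeR adjusted p = 0.0524), and gave -0.29 without CD41pos WT 3. Ndufv1, the flavin subunit that oxidises NADH, gave -0.39 ± 0.15 (edgeR adjusted p = 0.0811), also without overlap, and -0.26 without CD41pos WT 3. Ndufs7, Ndufv2 and Ndufs8 gave -0.48, -0.38 and -0.34, and -0.12, -0.10 and -0.06 without that library. The lowest value of complex I was that of the accessory subunit Ndufs5, at -0.70 ± 0.27 (edgeR adjusted p = 0.0905), with 77.9, 156 and 66.7 CPM in WT and 60.6, 63.3 and 60.5 in KO, and it was -0.24 without CD41pos WT 3.

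In complex II none of the 8 genes was called in either KO against WT comparison with all libraries. Sdha, the subunit that oxidises succinate, measured 471, 353 and 466 CPM in CD41pos WT and 519, 500 and 509 in CD41pos KO, the opposite order to most of the set and without overlap, at 0.24 ± 0.12 (edgeR adjusted p = 0.155), and at 0.12 without CD41pos WT 3. Sdha was, like Ndufs1, lowest in CD41pos WT 3. Summed in TPM, complex II was lower in that library than in any other, at 2028 TPM against 2140 to 2545 in the other 11, while complex I stood at 20260 TPM against 13910 to 17870; as a mean of log2 CPM over its 8 genes, complex II was highest there, at 6.81. Sdhb, Sdhc and Sdhd gave -0.23, -0.36 and -0.29, and -0.01, -0.10 and -0.15 without that library. Sdhaf2, the assembly factor that helps attach flavin to Sdha, had 49.1, 57.3 and 47.6 CPM in CD41pos WT and 66.1, 69 and 61.3 in CD41pos KO, and 59.9, 53.3 and 58.6 in CD41neg WT and 66, 69.1 and 64.6 in CD41neg KO. It was the single gene of the set whose KO libraries lay above the WT libraries in both gates, at 0.35 ± 0.12 in CD41pos (edgeR adjusted p = 0.0587) and 0.22 ± 0.12 in CD41neg (edgeR adjusted p = 0.262), so neither passed. The CD41pos value without CD41pos WT 3 was 0.43 and passed (adjusted p = 0.0198). Its exons overlap those of Cpsf7 on the other strand.

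In complex III, 1 of 9 genes was called, the same one in both gates. Uqcrc1 encodes a core protein of the matrix arm of the complex, next to Uqcrc2. It measured 538, 620 and 524 CPM in CD41pos WT and 392, 356 and 363 in CD41pos KO. In CD41neg cells it measured 591, 585 and 782 CPM in WT and 352, 396 and 376 in KO. Every KO library was below every WT library, and the KO means of the gates were within 1 SD of each other, at 371 ± 19.1 and 374 ± 21.9 CPM (SD, n = 3), against 561 ± 51.7 and 653 ± 112 in WT. The log2 fold change was -0.60 ± 0.13 in CD41pos (edgeR adjusted p = 0.0104) and -0.80 ± 0.13 in CD41neg (edgeR adjusted p = 0.00564), and the difference between the gates did not pass (0.20 ± 0.18; edgeR adjusted p = 0.918).

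Uqcrc1 is 1670 bases long by the deposited tables, and with the length offset it gave -0.34 in CD41pos (adjusted p = 0.0325) and -0.68 in CD41neg (adjusted p = 0.00284). Without CD41pos WT 3 the CD41pos value was -0.52 (adjusted p = 0.0183), and without CD41neg WT 4 the CD41neg value was -0.65 (adjusted p = 0.0154). The CD41neg call was kept in all 27 alternatives. The CD41pos call was kept in 25 and lost with a block for the replicate number (adjusted p = 0.0726) and without CD41pos KO 2 (adjusted p = 0.0559). The gene lies on chr9:108936633-108949623 (plus strand, mm10), and its exons overlap those of no other annotated gene. Uqcrc2, by contrast, gave 0.02 ± 0.12 in CD41pos and -0.13 ± 0.12 in CD41neg, and the Rieske iron-sulfur protein Uqcrfs1 gave -0.20 and -0.21, none of them called. Uqcr11, a small subunit, had the lowest CD41pos value of the complex at -0.72 ± 0.27 (edgeR adjusted p = 0.0782), and -0.29 without CD41pos WT 3. Uqcrh-ps1, which shares sequence with Uqcrh, had a mean of 6.59 TPM, and reads of the pair may be split between them.

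**Figure D4:**
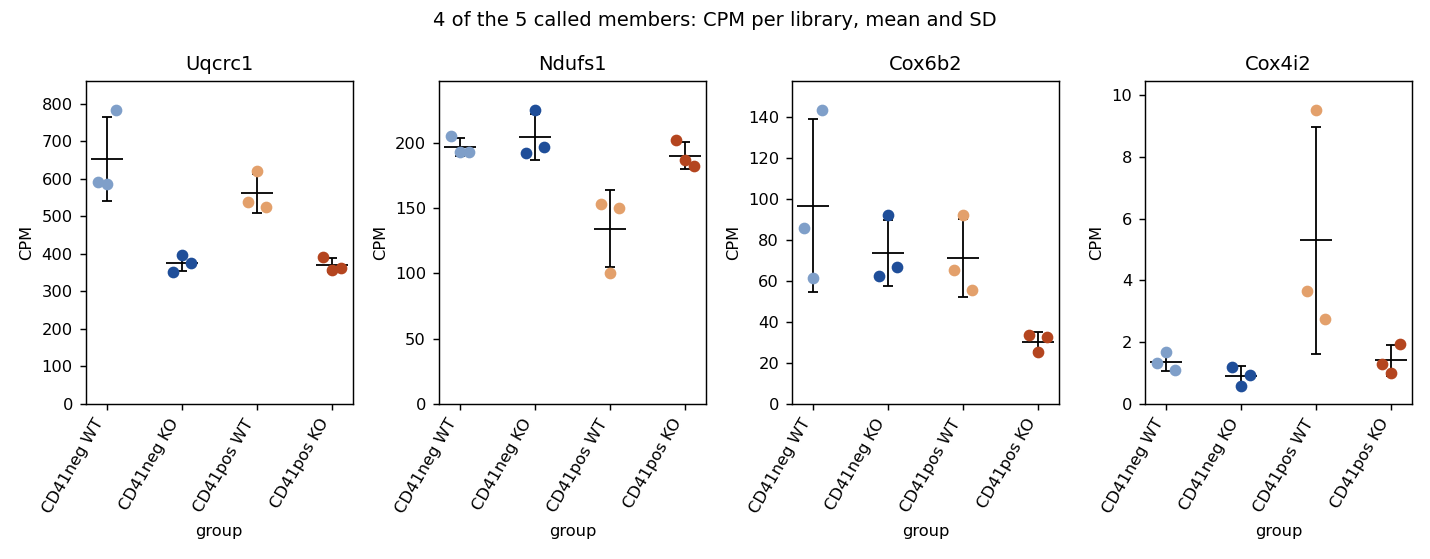
CPM of Uqcrc1, Ndufs1, Cox6b2 and Cox4i2 in every library (points), with the mean and SD of the 3 libraries of each group (bars), on axes that start at 0. The Uqcrc1 libraries of KO lie below those of WT in both gates, the lowest Ndufs1 group is CD41pos WT (134 CPM), the lowest Cox6b2 group is CD41pos KO (30.3 CPM), and Cox4i2 peaks at 9.51 CPM in CD41pos WT 3.

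In complex IV, 2 of the 15 tested genes were called lower in CD41pos KO, and both encode second isoforms rather than the main subunit. Cox6b2, known as the testis isoform of a subunit that faces the intermembrane space, measured 65.3, 92.2 and 55.4 CPM in CD41pos WT and 33.3, 25 and 32.7 in CD41pos KO, without overlap. The log2 fold change was -1.23 ± 0.29 (edgeR adjusted p = 0.0165), and -0.995 without CD41pos WT 3 (adjusted p = 0.0465). The call was kept in 24 of 27 alternatives and lost without CD41pos KO 2 (adjusted p = 0.0783), without CD41pos KO 3 (0.0534) and with a block for the replicate number (0.0793). In CD41neg cells Cox6b2 measured 85.5, 61.3 and 143 CPM in WT and 62.1, 91.9 and 66.6 in KO, which overlap, at -0.39 ± 0.29 (edgeR adjusted p = 0.408). The difference between these 2 effects did not pass (-0.83 ± 0.41; edgeR adjusted p = 0.883).

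Cox4i2, the isoform of subunit IV that is induced by low oxygen in lung, was far lower in count. It measured 3.65, 9.51 and 2.74 CPM in CD41pos WT and 1.28, 0.986 and 1.95 in CD41pos KO. Its log2 fold change of -1.91 ± 0.49 (edgeR adjusted p = 0.0222) rested largely on CD41pos WT 3, without which it was -1.19 (adjusted p = 0.0838). Cox4i2 lies on chr2:152754173-152765037 and Cox6b2 on chr7:4751792-4753094 (mm10). The length of Cox6b2 implied by the deposited tables was 3201 bases, longer than that whole span. Some of its counts may therefore come from outside the annotated gene, which was not tested.

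None of the main isoforms of complex IV was called. Cox4i1, Cox5a and Cox5b, the nuclear subunits around the catalytic core, gave -0.46 ± 0.21, -0.48 ± 0.23 and -0.59 ± 0.26 in CD41pos, and -0.13, -0.11 and -0.15 without CD41pos WT 3. Cox4i1 measured 359, 621 and 346 CPM in CD41pos WT and 329, 320 and 316 in CD41pos KO. The 7 other main subunits ranged from -0.45 for Cox6b1 to -0.55 for Cox6a1. Cox7a2l, a factor that helps hold complexes III and IV together in supercomplexes, gave -0.37 ± 0.14 (edgeR adjusted p = 0.078), and -0.22 without CD41pos WT 3. The heart and muscle isoform Cox6a2 was near 0 throughout, with 0.195, 0.204 and 0.471 CPM in CD41pos WT and 0.146, 0 and 0.0176 in CD41pos KO. Cox7b2, Cox8b and Cox8c, with 19, 1 and 9 counts over all 12 libraries, were left out by the filter on low counts.

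In complex V, 1 of 17 genes was called in CD41pos cells, and it is not a subunit of the synthase. Atp5sl, whose product has been assigned to complex I assembly, measured 45.8, 59.6 and 46.7 CPM in CD41pos WT and 35.1, 33.9 and 34.9 in CD41pos KO, at -0.55 ± 0.17 (edgeR adjusted p = 0.0466). The call was lost in 18 of 27 alternatives, among them without CD41pos WT 3 (-0.42, adjusted p = 0.119) and with the length offset (-0.49, adjusted p = 0.0547). The catalytic head showed small values, with 0.07 ± 0.09 for Atp5a1, -0.07 ± 0.11 for Atp5b and -0.08 ± 0.14 for the gamma subunit Atp5c1. Atp5b measured 1350, 1650 and 1340 CPM in CD41pos WT and 1420, 1390 and 1320 in CD41pos KO. The smaller delta and epsilon subunits gave -0.62 ± 0.23 for Atp5d (edgeR adjusted p = 0.0805) and -0.52 ± 0.27 for Atp5e (edgeR adjusted p = 0.184), and -0.23 and -0.08 without CD41pos WT 3. Atp5k, of the membrane part, had the lowest value of the complex, -0.66 ± 0.29 (edgeR adjusted p = 0.122; -0.18 without CD41pos WT 3), and Atp5s the highest, 0.13 ± 0.13. Across the 94 genes, the log2 of length and the log2 fold change in CD41pos had a Pearson r of 0.336 and a Spearman rho of 0.37, given as a description since the genes share libraries.

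None of the 11 assembly factors among the set was called in CD41pos KO. Their median was -0.28, against -0.52 for the 52 other subunits and -0.35 for the 22 core subunits, and the difference between these medians was not tested. The medians without CD41pos WT 3 were 0.00, -0.14 and -0.09. Sdhaf1, which helps insert iron-sulfur clusters into complex II, gave -0.46 ± 0.24 (edgeR adjusted p = 0.19), and -0.08 without that library. Among 36 assembly factors and chaperones with other names, 2 were called lower in CD41pos KO, the copper chaperone Sco2 at -0.51 ± 0.15 (edgeR adjusted p = 0.0422) and the membrane insertase Oxa1l at -0.49 ± 0.15 (edgeR adjusted p = 0.0437). Those counts stand beside 7.27% of all genes called lower. Neither passed without CD41pos WT 3, at -0.29 and -0.32 (adjusted p = 0.0804 and 0.103). The median of the 36 was -0.36, and -0.08 without that library.

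In CD41neg cells, KO against WT again gave mostly negative values, and 1 gene was called. It was Uqcrc1, lower in KO, where 3.97% of all genes were called lower, 3.85% higher and 7.82% in either direction. At an unadjusted p below 0.05, 6 of the 94 passed, against 26.3% of all genes. The median was -0.28, against -0.03 over all genes, and 92 of the 94 values were negative. In 24 genes the KO libraries lay below the WT libraries, where 17% of all genes did, and in 1 (Sdhaf2) above, where 18.5% did. The complex medians were -0.28, -0.28, -0.26, -0.30 and -0.20 for complexes I to V, and -0.09, -0.14, -0.11, -0.09 and -0.06 without CD41neg WT 4. The median was -0.09 without CD41neg WT 4 and -0.15 with the length offset, and with that offset 16 genes lay below and 1 above without overlap, where 17.2% and 16.5% of all genes did.

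The core subunits Ndufv1 and Sdhd missed the threshold in CD41neg cells. Ndufv1 measured 250, 264 and 352 CPM in CD41neg WT and 202, 223 and 204 in CD41neg KO, without overlap, at -0.46 ± 0.15 (edgeR adjusted p = 0.0722), and at -0.29 without CD41neg WT 4. Sdhd measured 297, 335 and 441 CPM in WT and 260, 273 and 258 in KO, without overlap, at -0.44 ± 0.15 (edgeR adjusted p = 0.0904), and at -0.26 without that library. Ndufs1, higher in CD41pos KO, measured 205, 193 and 193 CPM in CD41neg WT and 192, 225 and 197 in CD41neg KO, which overlap, at 0.05 ± 0.15. The lowest value in complex V was that of Atp5d, at -0.50 ± 0.23 (-0.29 without that library), and in complex I that of Ndufa4l2, a low-count isoform at 0.7 TPM, at -0.55 ± 0.60.

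In 16 genes the KO libraries lay below the WT libraries in both gates, which is 30.8% of the 52 in CD41pos and 66.7% of the 24 in CD41neg. Of all tested genes, 10.2% lay below in both gates and 12.4% above. With the length offset 5 of the 94 lay below in both gates (Atp5d, Atp5g1, Ndufs3, Ndufv1 and Uqcrc1) and 1 above, where 9.73% and 10.6% of all genes did. Without CD41pos WT 3 and CD41neg WT 4 the count below was 17, where 13.7% of all genes did. Such a count cannot fall when libraries are left out. The 16 were Ndufa8, Ndufa13, Ndufb7, Ndufc2, Ndufs3, Ndufs5 and Ndufv1 of complex I, Sdhd and Sdhaf4 of complex II, Uqcrc1 and Uqcrq of complex III, Cox4i1 and Cox6a2 of complex IV, and Atp5d, Atp5g1 and Atp5o of complex V, named here because of these values. The interaction of genotype and gate, which tests whether the KO effect differs between gates, was called for none of the 94 genes by edgeR or by DESeq2, with none at an unadjusted p below 0.05 by edgeR, where 5.64% of all genes passed and 0% were called. Its median was -0.17.

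The gates were then compared within each genotype. In WT, Cox4i2 was called higher in CD41pos cells and no gene was called lower, where 2.72% and 2.87% of all genes were (5.59% in either direction). Cox4i2 measured 3.65, 9.51 and 2.74 CPM in CD41pos WT and 1.33, 1.68 and 1.1 in CD41neg WT, at 1.95 ± 0.49 (edgeR adjusted p = 0.0392). Without CD41pos WT 3 it was 1.23 (adjusted p = 0.116), and the call was kept in 14 of 29 alternatives. The median over the 94 genes was 0.21, with 70 positive values, but it was -0.13 without CD41pos WT 3, 0.40 without CD41neg WT 4 and -0.01 with the length offset, so its direction turned with 1 library. With the length offset, 2 genes lay above and 15 below without overlap, where 11.2% and 12.8% of all genes did. In 1 gene the CD41pos libraries lay above the CD41neg libraries and in 2 below, where 11.4% of all genes did in each direction. Those 2 were Ndufs1, at -0.55 ± 0.15 (edgeR adjusted p = 0.0511), and Sdha, at -0.27 ± 0.12 (edgeR adjusted p = 0.206), both again lowest in CD41pos WT 3. Without that library Ndufs1 gave -0.38 (adjusted p = 0.0386) and Sdha -0.14 (adjusted p = 0.33).

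In KO, where the library means of the set spanned 6.25 to 6.43 log2 CPM, 1 gene was called between the gates. The median was 0.03 over the 94 genes, against -0.02 over all genes, and the complex medians were between -0.01 and 0.06. Cox6b2 was called lower in CD41pos cells and no gene was called higher, where 1.23% and 1.56% of all genes were (2.79% in either direction). It measured 33.3, 25 and 32.7 CPM in CD41pos KO against 62.1, 91.9 and 66.6 in CD41neg KO, at -1.28 ± 0.29 (edgeR adjusted p = 0.0375). The replicate numbers paired the KO libraries of the gates, and with the animal label as a block the value was -1.27 (adjusted p = 0.0806), so the call ended. In 10 genes the CD41pos libraries lay above and in 10 below the CD41neg libraries, where 15.7% and 14.1% of all genes did (29.9% in either direction). Among the lower ones were Ndufs3, Ndufv1, Sdhd, Uqcrfs1 and Atp5g1, and among the higher ones Ndufa4, Ndufb7, Ndufs4 and Atp5j, none of them called and all chosen after their values were seen.

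The isoform genes gave a measure within a library, since shares of summed TPM do not depend on its overall level. Shares of genes of unlike length can still move with the length pattern described above. The c-ring of the ATP synthase is built from 1 protein that 3 genes, Atp5g1, Atp5g2 and Atp5g3, encode with different import sequences. Atp5g1 made up 29.4%, 28.7% and 29.1% of their summed TPM in CD41pos WT and 35.6%, 34.9% and 37.0% in CD41neg WT. In KO it made up 28.4%, 27.0% and 27.9% in CD41pos and 32.2%, 33.2% and 32.6% in CD41neg cells. The CD41pos libraries were below the CD41neg libraries in both genotypes, and CD41pos WT 3 lay among its group. Atp5g2 showed the reverse order, with 46.8% to 48.3% in the 6 CD41pos libraries and 39.5% to 43.3% in the 6 CD41neg libraries. Atp5g3 stayed between 23.6% and 24.9%. No test was run on these shares, which are given as values. As log2 fold changes between the gates, Atp5g1 gave -0.08 ± 0.24 in WT and -0.24 ± 0.24 in KO and Atp5g2 gave 0.48 ± 0.24 and 0.15 ± 0.24, none of them called. Atp5g1 and Atp5g2 measure 1614 and 651 bases by the deposited tables.

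**Figure D5:**
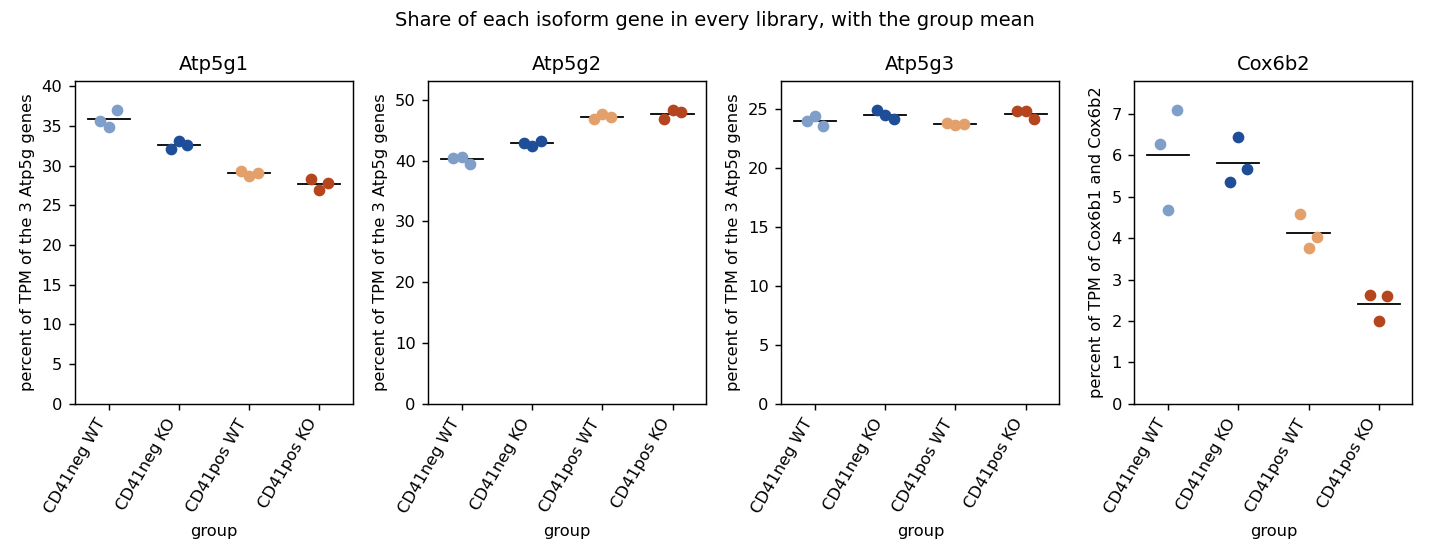
The share of Atp5g1, Atp5g2 and Atp5g3 in their summed TPM, and of Cox6b2 in that of Cox6b1 and Cox6b2, in every library (points) with the group mean (bars), on axes that start at 0. Atp5g1 is lower and Atp5g2 higher in all CD41pos libraries, and Cox6b2 is lowest in CD41pos KO.

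In the Cox6b pair, Cox6b2 made up 4.13% ± 0.41 (SD, n = 3) in CD41pos WT, 6.01% ± 1.23 in CD41neg WT, 2.4% ± 0.35 in CD41pos KO and 5.83% ± 0.56 in CD41neg KO. The 3 CD41pos KO libraries, at 2.62%, 1.99% and 2.59%, were below the other 9, of which the lowest was CD41pos WT 3 at 3.77%. These shares carry the limit given above, that some Cox6b2 counts may come from outside the annotated gene. Cox4i2 made up at most 0.749% of its pair, in CD41pos WT 3. Cox7a2 was the main member of its set at 78.6% to 85.2%, Cox7a2l made up 14.3% to 21%, and Cox7a1 at most 0.854%. The highest Cox7a2 and lowest Cox7a2l shares were in CD41pos WT 3 (85.2% and 14.3%) and next in CD41neg WT 4 (83.0% and 16.5%). Cox7a2 and Cox7a2l measure 759 and 2246 bases by the deposited tables. Cox6a2, Cox7b2, Cox8b, Cox8c and Ndufa4l2 each stayed below 0.3% of their sets in every library.

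The other genes of the pathway were taken from fixed lists. Among 16 regulators of mitochondrial gene expression, of which 15 were tested, 3 were called higher and 1 lower in CD41pos KO, where 9.79% and 7.27% of all genes were, and without CD41pos WT 3 2 higher and 1 lower. Gabpa, the ETS factor whose letters were searched above, rose by 0.61 ± 0.10 (edgeR adjusted p = 0.00444) in CD41pos and by 0.51 ± 0.10 (edgeR adjusted p = 0.0153) in CD41neg KO. It gave 0.63 without CD41pos WT 3 (adjusted p = 0.00403), and 0.44 without CD41neg WT 4, which did not pass (adjusted p = 0.0595). Its exons overlap those of Atp5j on the other strand, so reads of the pair cannot be told apart by strand. Nrf1, the factor named for the first motif above, was 0.43 ± 0.13 higher in CD41pos KO (edgeR adjusted p = 0.0355) and 0.08 ± 0.13 in CD41neg KO, which did not pass, and the CD41pos call ended without CD41pos WT 3 (0.34, adjusted p = 0.0679). The mitochondrial DNA polymerase Polg rose by 0.58 ± 0.14 in CD41pos KO (edgeR adjusted p = 0.0164; 0.42 and 0.0119 without that library). The nuclear receptor Esrra was lower in CD41pos KO, at -0.72 ± 0.22 (edgeR adjusted p = 0.0467; -0.38 and 0.138 without CD41pos WT 3), and the mitochondrial RNA polymerase Polrmt in CD41neg KO, at -0.77 ± 0.14 (edgeR adjusted p = 0.011; -0.74 and 0.0431 without CD41neg WT 4). Polrmt also passed in CD41pos KO without CD41pos WT 3 (-0.52, adjusted p = 0.00905). In WT, Pprc1, Polrmt and Polg (3 of 15) were called lower in CD41pos than in CD41neg cells, where 2.87% of all genes were. These calls held without CD41pos WT 3 and ended without CD41neg WT 4 (adjusted p = 0.0749, 0.075 and 0.0671).

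Of 14 genes of protein import and carriers, 2 were called lower and 1 higher in CD41pos KO, where 7.27% and 9.79% of all genes were. In CD41neg KO 2 were called lower, where 3.97% of all genes were. The ADP/ATP translocator Slc25a4 fell in KO by 0.91 ± 0.14 on the log2 scale in CD41pos (edgeR adjusted p = 0.00324) and by 0.80 ± 0.14 in CD41neg (edgeR adjusted p = 0.00886). The import channel Tomm40 fell by 0.84 ± 0.21 and 1.00 ± 0.21 (edgeR adjusted p = 0.0201 and 0.0174), and the receptor Tomm70a rose in CD41pos KO by 0.66 ± 0.11 (edgeR adjusted p = 0.00409). The CD41pos values without CD41pos WT 3 were -0.75, -0.52 and 0.57, each passing, and without CD41neg WT 4 the CD41neg values were -0.73 for Slc25a4 (adjusted p = 0.034) and -0.82 for Tomm40, which did not pass (adjusted p = 0.0658). Of 17 genes of the citric acid cycle and pyruvate dehydrogenase, 3 were called higher and none lower in CD41pos KO (against 9.79% and 7.27% of all genes), namely Ogdh at 0.66 ± 0.19, Dld at 0.54 ± 0.16 and Sucla2 at 0.34 ± 0.10, and none in CD41neg KO. Ogdh measured 346, 183 and 337 CPM in CD41pos WT, lowest in CD41pos WT 3. Without that library Ogdh gave 0.41 (adjusted p = 0.0215), Dld 0.34 (adjusted p = 0.0259) and Sucla2 0.29, which did not pass (adjusted p = 0.0661). The median of the 17 was 0.13 in CD41pos, 0.07 without CD41pos WT 3, and their mean log2 CPM was 7.33 in CD41pos WT 3, the lowest of the 12 libraries, where the oxidative phosphorylation genes were highest. In WT, Cs and Dlat (2 of 17) were called lower in CD41pos cells, at -0.49 ± 0.11 and -0.56 ± 0.11, where 2.87% of all genes were called lower. Without CD41neg WT 4 Cs did not pass (-0.43, adjusted p = 0.0844), and 1 of the 17 was called lower, where 1.11% of all genes were. Of 12 genes of electron carriers, 11 of them tested, none was called in any comparison. Cytochrome c1 (Cyc1), a subunit of complex III outside the symbol rule, gave -0.47 ± 0.21 and -0.54 ± 0.21 in the KO comparisons, and -0.14 and -0.38 without the library that stood apart in each gate. The cytosolic ribosomal protein genes, 84 in number, had medians of -0.54, -0.24, 0.23 and -0.08 in the comparisons in the order given above (KO against WT in CD41pos and CD41neg, then CD41pos against CD41neg in WT and KO), and the 77 mitochondrial ribosomal protein genes -0.39, -0.31, 0.05 and -0.03, beside -0.48, -0.28, 0.21 and 0.03 for the oxidative phosphorylation genes. In CD41pos without CD41pos WT 3 the 3 sets had medians of -0.17, -0.11 and -0.12.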

How the data were processed

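The authors deposited a table of raw read counts per gene and a table of TPM values for the 12 libraries. Per the submitters' processing notes, the tools were featureCounts 1.6.2, STAR 2.6.1e, cutadapt 1.9.1 and FastQC 0.11.7, with build mm10, while no annotation release or counting setting is given in the sources used here. TPM was deposited by the authors per length and library total, and counts divided by TPM gave 1 length per gene, within 0.247% across libraries for 4330 genes of at least 20 TPM. The 27 gene names turned into dates in the count table were read from the TPM table.

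The genes and lists were chosen with earlier results of these data known, so lists get counts and medians and no test. Counts were fitted with edgeR 4.0.16 (R 4.3.3; filterByExpr, TMM, 4 group means, quasi-likelihood F test, two-sided, Benjamini-Hochberg over 19395 genes, threshold 0.05), which left out 16474 genes and 3 of the 97. CPM uses TMM library sizes. The length offset is a lowess curve of each library's deviations on log2 length. DESeq2 1.42.0 and limma 3.58.1 on log2(TPM + pseudocount) served as alternatives. The procedure was tested on simulated data for KO against WT in CD41pos. It recovered 53 of 100 changes of 1 log2 unit and 96 of 100 changes of 2, and called 6 unchanged genes. Smaller changes, such as most of those described here, were not simulated. Figures were drawn with matplotlib 3.10.9. Genes named were core subunits, isoforms, called genes, extremes of each complex and up to 3 of each other list; the values of 1 core subunit are not reported here.

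Of the 97 genes, 95 had 1 entry of their name in GENCODE M21 (Atp5o has several and Atp5sl none), and exons of 35, Atp5o included, overlap those of another gene. Deviations from group means over 10211 genes correlated between same-numbered KO libraries of the 2 gates (r = 0.478, 0.658 and 0.543), so the KO numbers pair libraries. Same-numbered WT libraries gave 0.145 and -0.519 and were not taken as pairs. The highest WT value, 0.607, was between CD41pos WT 4 and CD41neg WT 2, which have the neighbouring library numbers 5 and 6. CD41pos WT 1 and CD41neg WT 4, numbered 1 and 2, gave 0.016. No fit paired all WT libraries by library number.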

Additional observations from a re-analysis of the deposited data

How the results depend on the processing

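The WT libraries carry numbers from 1 to 10 and the KO libraries from 13 to 22, so no setting can tell genotype from library order. The count of called genes in KO against WT in CD41pos cells was 5 and moved most with the WT libraries. It was 9 with DESeq2, 9 with total counts in place of TMM, 2 when only the groups compared were fitted, 3 with limma on log2(TPM + 1) without a filter, 22 with a term for the 4 WT libraries numbered 1, 2, 5 and 6, 77 without those 4 (which leaves 1 WT library per gate, assumed to vary like the KO libraries), and 0 to 19 when 1 library was left out (0 without CD41pos KO 2, 19 without CD41pos WT 4). In CD41neg cells the count was 1, against 3 with DESeq2, 2 with limma on log2(TPM + 1) and on log2(TPM + 0.1), 2 without the 4 WT libraries, and 1 to 6 when 1 library was left out (6 without CD41pos WT 3). Leaving out CD41pos WT 3 and CD41neg WT 4 together, chosen after seeing the data, as were the counts of groups that do not overlap under other settings and the leave-out values of the other lists, gave 8 and 4. Between the gates in WT the count was 1, against 2 with DESeq2, 2 with a minimum of 1 CPM in 3 libraries, 0 when only the groups compared were fitted, 4 with both limma pseudocounts, 2 with limma without a filter, 2 with the term for the 4 WT libraries, 67 without them, 6 with the length offset, 4 with the length offset and the KO animal block, and 0 to 2 when 1 library was left out. Between the gates in KO it was 1, against 0 to 1 when 1 library was left out. The interaction count was 0, and 61 without the 4 WT libraries.

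With the KO animal label as a replicate block, the counts between the gates were 0 in WT and 0 in KO, also 0 in KO with the length offset, and with the replicate number as a block they were 1, 1, 0 and 0 in the 4 comparisons and 0 for the interaction; same-numbered WT libraries did not pair. The median log2 fold changes kept within the spread between libraries, except without the 4 WT libraries, where they were 0.86 between the gates in WT and -0.78 for the interaction. When 1 library was left out they ranged from -0.61 to -0.12, -0.36 to -0.09, -0.13 to 0.40, -0.01 to 0.10 and -0.35 to 0.17 in the 5 comparisons. On log2(TPM + 0.1) the median of all genes in KO against WT was 0.11 in CD41pos and 0.12 in CD41neg, against -0.08 and -0.03. DESeq2's size factors, no filter on low counts and a covariate of Y-linked genes moved no count by more than 1.5 times. No called result changed sign. Depth did not limit the main subunits; Cox4i2, Cox6a2 and the filtered isoforms had few counts.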
